A study of Mus musculus with 31 samples.

Results

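The transition from double negative (DN) to double positive (DP) thymocytes was examined in neonatal mice, by comparing the 4 neonatal DP libraries with the 4 neonatal DN libraries of a series of 31 RNA-seq libraries. All mice carried the genotype given as C57BL/6, an inbred laboratory strain, and received no treatment. The neonates were 5 to 7 days old. DN thymocytes, which carry neither CD4 nor CD8 on the surface, were a pool of the steps DN1 to DN3 and were sorted from what remained after magnetic removal of CD4-bound and then CD8a-bound cells. DP thymocytes, which carry both proteins, were sorted from the CD4-bound cells. The 3 adult DN and 4 adult DP libraries, from mice of 12 weeks, were used to ask whether a change differed with age, and the neonatal SP8 thymocytes (4 libraries) and splenic naive CD8 T cells (4 libraries) to place levels along later stages. The libraries were made from polyadenylated RNA. Nothing in the labels says which libraries shared an animal or whether animals were pooled, so the p-values measure the spread between these libraries.

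DN thymocytes enter the thymus as progenitors, commit to the T lineage under Notch signals, and rearrange the gene of the T cell receptor β chain. A β chain that pairs with the invariant pre-TCR α chain gives a signal, called β-selection, that drives several divisions. The cells then switch on CD4 and CD8, stop dividing as small DP cells, and rearrange the α chain gene. DP cells live for a short time unless their receptor binds a self peptide, and genes for survival, recombination and receptor signalling are therefore the usual markers of this stage. In bulk libraries fewer cells of a type and less RNA per cell cannot be told apart, and the pool of DN1 to DN3 cells contains more than 1 step.

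Library totals ran from 17071979 to 21237801 counts in neonatal DN and from 15213614 to 18309228 in neonatal DP. Levels are given as CPM, counts per 1000000 counts of a library after TMM scaling, and each comma-separated run of 4 CPM values follows replicates 1 to 4. A level of 3 counts, which served as the detection floor, equalled between 0.143 and 0.179 CPM in these 8 libraries. It covers counting error only. The first principal component held 88.0% of the variance of log2 CPM over these 8 libraries and separated the stages. On the second component, with 2.72% of the variance, neonatal DP replicate 4 (-35.75) and DN replicate 4 (-25.26) stood apart from the other 6 libraries (3.46 to 20.73). The summed CPM of DP replicate 4 over 38 DNA replication genes was 3151, against 2252 to 2501 in the others, and the 4 DN libraries lay between 12850 and 13320.

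The stage labels were checked on the genes of the sorted proteins. Cd4 (chr6:124864692-124888221, GRCm38) measured 5.50, 4.23, 6.26 and 5.90 CPM in DN and 1569, 1668, 1634 and 1620 CPM in DP. Cd8a (chr6:71373427-71379173) measured 69.0, 65.8, 67.5 and 63.9 CPM in DN and 2746, 2618, 2890 and 2980 CPM in DP. The groups lie far apart for both genes. The DN level of Cd4 was 0.337% of the DP level and that of Cd8a was 2.37%. Il2ra (chr2:11642807-11693193), which encodes CD25, the surface marker of the DN2 and DN3 steps, measured 158, 176, 124 and 92.4 CPM in DN and 22.8, 22.5, 20.1 and 14.2 CPM in DP. All DN libraries were above all DP libraries, and DN replicate 4 was the lowest of its group.

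Most of the measured transcriptome differed between the stages. Of 16461 genes tested with edgeR's quasi-likelihood test, 12335 passed an adjusted p-value of 0.05 (74.9%), 6236 higher in DP (37.9%) and 6099 lower (37.1%). At least a 2-fold change was found for 7727 of the called genes (46.9% of those tested), 3778 higher (23.0%) and 3949 lower (24.0%). Among called genes, 400 were over 16-fold higher in DP and 644 over 16-fold lower. The 4 DN and 4 DP libraries did not overlap for 11787 genes (71.6%). These shares are the background against which every count of list members below is to be read. The median log2 fold change over all tested genes was 0.05.

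**Figure D1:**
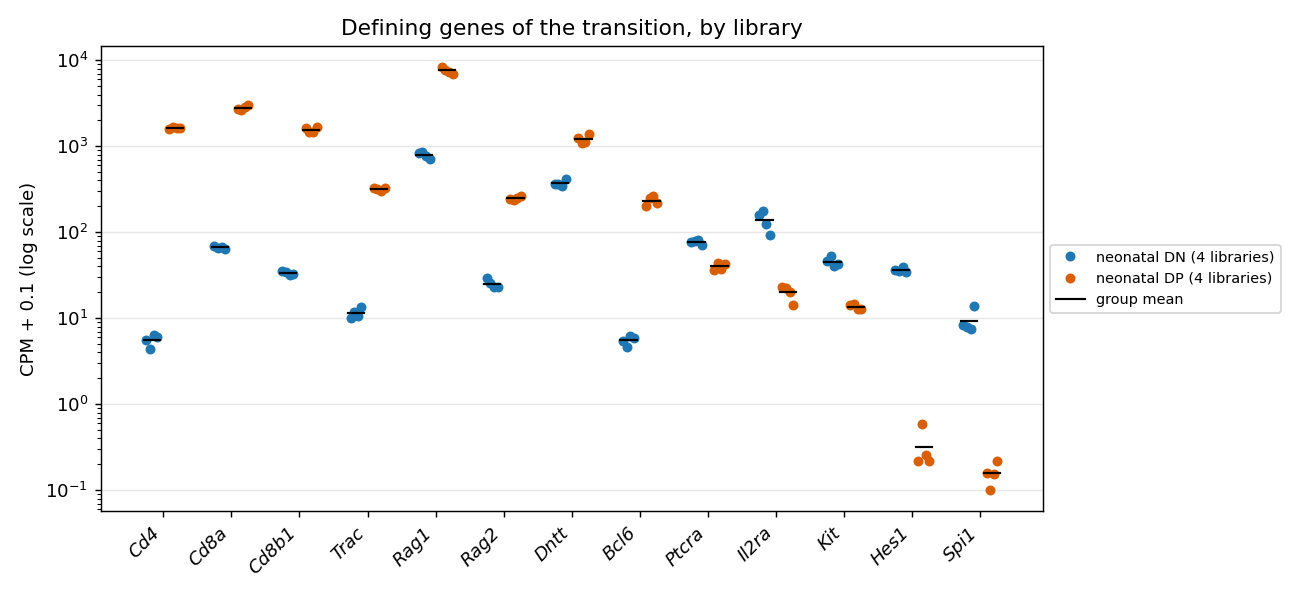
CPM + 0.1 on a log axis for 13 defining genes in each of the 4 neonatal DN (blue) and 4 neonatal DP (orange) libraries, with black bars at group means. Cd4, Cd8a, Cd8b1, Trac, Rag1, Rag2, Dntt and Bcl6 lie higher in every DP library, and Ptcra, Il2ra, Kit, Hes1 and Spi1 lie lower in every DP library.

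Among 14 stage markers 9 rose and 5 fell, with the coreceptor genes at the top, and the median log2 fold change was 2.0. The cells were sorted by CD4 and CD8, so the place and p-values of the coreceptor genes largely follow from the sort. The rise was 298-fold for Cd4 (log2 fold change 8.22, SE 0.20, adjusted p = 1.16e-26), 42.2-fold for Cd8a (5.40, SE 0.09) and 46.8-fold for Cd8b1, which encodes the CD8 β chain (5.55, SE 0.12). Cd5, which dampens receptor signals, rose from 31.3 ± 2.11 to 259 ± 12.9 CPM (SD, n = 4 each), and Cd27, a costimulatory receptor, from 84.4 ± 1.63 to 473 ± 25. The activation marker Cd69 rose 4.82-fold. Il2ra fell 6.90-fold (log2 fold change -2.79, SE 0.20). Kit, the receptor for stem cell factor, measured 46.2, 52.8, 40.5 and 43.0 CPM in DN and 14.2, 14.4, 12.8 and 12.6 CPM in DP, and Cd44, a marker of the DN1 and DN2 steps, fell from 14.3 ± 3.57 to 5.10 ± 0.290 CPM.

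Genes of the T cell receptor complex and of its signalling chain were mostly higher in DP. All 36 members of that list were called, 31 higher and 5 lower, with 25 at least 2-fold higher and 0 at least 2-fold lower, and the median log2 fold change was 1.43. Trac (chr14:54220521-54224206), the constant region of the α chain, measured 9.95, 11.8, 10.6 and 13.4 CPM in DN and 327, 320, 302 and 325 CPM in DP. That is a 27.8-fold rise, set beside rises of 2.90-fold for Trbc1 and 2.57-fold for Trbc2, the β chain constant regions. Trbc1 and Trbc2 are near-identical copies, so the split of reads between them is uncertain. The CD3 chains rose less, Cd3g by 1.45-fold, Cd3e by 1.85-fold and Cd3d by 1.95-fold, while Cd247, the ζ chain, rose 4.06-fold. Among the kinases and adaptors, Lck rose 2.36-fold, Zap70 1.85-fold, Lat 2.52-fold and Themis, a DP adaptor required for positive selection, 5.76-fold.

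The 5 members that fell were Ptcra, Syk, Cblb, Csk and Ptpn6. Members that limit signalling went in both directions, since Cd5, Cbl, Ptpn22, Sla and Sla2 rose. Ptcra (chr17:46755663-46763712), the pre-TCR α chain, measured 77.8, 78.3, 80.7 and 70.6 CPM in DN and 36.2, 43.8, 37.6 and 42.7 CPM in DP. The groups did not overlap, and the DN mean was 1.92 times the DP mean (adjusted p = 2.33e-09). Syk, a kinase that acts beside Zap70 in the pre-TCR signal, fell 1.38-fold. Cblb, a ubiquitin ligase that limits signalling, and the inhibitory enzymes Csk and Ptpn6 also fell, with log2 fold changes of -0.82, -0.38 and -0.21.

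The recombination genes went in both directions. The list of 21 V(D)J recombination genes had 9 members higher and 12 lower in DP, and its median log2 fold change was -0.26. Rag1 (chr2:101638282-101649501), a subunit of the recombinase, measured 826, 860, 764 and 704 CPM in DN and 8334, 7794, 7348 and 6961 CPM in DP. Its partner Rag2 (chr2:101624718-101632529) measured 28.9, 25.8, 23.2 and 22.9 CPM in DN and 247, 234, 248 and 262 CPM in DP. The rises were 9.65-fold and 9.83-fold, and no library of either stage overlapped the other stage. Dclre1c (Artemis, the hairpin opener) rose 5.77-fold, Lig4 (the joining ligase) 2.52-fold, Polm (polymerase μ) 3.33-fold and Dntt, the enzyme TdT that adds untemplated bases, 3.26-fold. Nbn, which senses breaks, fell 6.88-fold, Xrcc5 (Ku80) 4.33-fold, Poll (polymerase λ) 9.46-fold and Hmgb2, a DNA-bending protein, 4.47-fold, while Xrcc6 (Ku70) rose with a log2 fold change of 0.18.

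Of 36 tested regulators of the T lineage, 25 were higher and 9 lower in DP, with a median log2 fold change of 0.75. Bcl6 (chr16:23965052-23988852), a repressor expressed in DP cells, measured 5.38, 4.47, 6.09 and 5.84 CPM in DN and 204, 248, 262 and 217 CPM in DP. The stages were separate in every library, with a rise of 42.8-fold. Ets2 rose 9.14-fold, the early growth response gene Egr2 10.5-fold and the genome organiser Satb1 4.87-fold.

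Commitment factors changed less. Tcf7, a Notch-induced factor of early T cells, rose 1.74-fold, Bcl11b, the commitment factor, 2.26-fold and Myb, which DP cells require, 3.63-fold. Lef1, a relative of Tcf7, measured 217 ± 40.4 CPM in DN and 195 ± 30.5 in DP and was not called (adjusted p = 0.471). Gata3 fell 1.49-fold and Runx3, a later factor of CD8 cells, 3.68-fold. The E-protein antagonists moved apart, Id2 with a fall of 2.18-fold and Id3 with a rise of 1.78-fold.

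**Figure D2:**
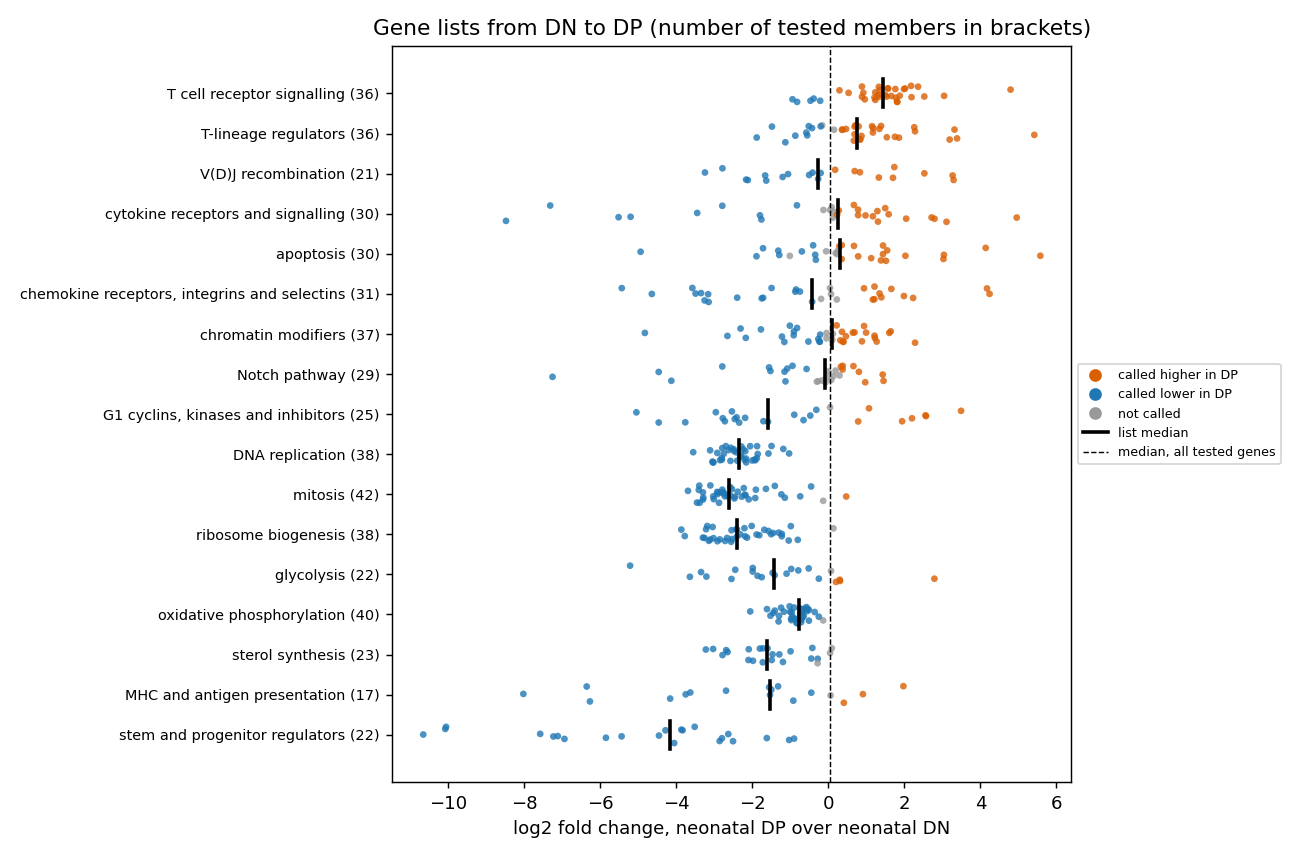
Log2 fold change from neonatal DN to DP (x axis) of the tested members of 17 gene lists, 1 point per gene, orange where called higher in DP, blue where called lower and grey where not called, with a black bar at the list median and a dashed line at the median of all tested genes, 0.05. The receptor signalling list has its median at 1.43, and the DNA replication, mitosis and ribosome biogenesis lists have theirs at -2.35, -2.62 and -2.40.

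Notch signalling drives commitment and works by cleavage of the receptor, whose inner part binds RBPJ and MAML proteins on target genes. Of 29 Notch pathway genes, 8 were higher and 11 lower in DP, 2 and 9 of them at least 2-fold, and the median log2 fold change was -0.07. Hes1 (chr16:30064384-30067796), a repressor and direct target, measured 36.0, 35.4, 39.5 and 34.4 CPM in DN and 0.119, 0.490, 0.158 and 0.117 CPM in DP, a 152-fold fall (adjusted p = 1.14e-18). Myc measured 284, 310, 359 and 319 CPM in DN and 15.2, 14.6, 14.5 and 13.6 CPM in DP, and Lfng, which modifies Notch receptors with sugar, fell 17.4-fold. All 3 genes were at a small share of their DN level in each DP library.

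Notch1 (chr2:26457903-26516663) measured 859, 1031, 1100 and 955 CPM in DN and 438, 514, 466 and 449 CPM in DP, a 2.11-fold fall. Notch3 measured 193, 246, 215 and 197 CPM in DN and 279, 311, 240 and 243 CPM in DP, and the 2 groups overlapped. Its log2 fold change of 0.33 passed the test (adjusted p = 0.0153) with all libraries, but not without DN replicate 1 (0.27, adjusted p = 0.0725), DN replicate 4 (0.28, adjusted p = 0.0625) or DP replicate 2 (0.25, adjusted p = 0.0879). Rbpj, the DNA-binding partner, measured 71.5 ± 7.72 CPM in DN and 71.9 ± 6.93 in DP (adjusted p = 0.962). The ubiquitin ligase gene Dtx1, a target in early thymocytes, measured 80.6 ± 7.44 and 72.0 ± 16.4 CPM (adjusted p = 0.381). The coactivators Maml1 and Maml2 rose, with log2 fold changes of 1.46 and 1.43.

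The change of many Notch genes depended on age. The difference between the neonatal and the adult change was tested as an interaction, and 2944 of 16461 genes passed (17.9%), 2031 with a higher value in neonates (12.3%) and 913 with a lower one (5.55%). The higher share among these calls was 69.0%, and it was 52.7% with DESeq2 size factors and 83.8% with total-count scaling, where 1510 and 512 genes had a lower value in neonates. Of the 29 Notch genes, 13 passed (44.8%), each with a higher value in neonates. Notch1 fell by 1.08 on the log2 scale in neonates and by 2.66 in adults, where it went from 895 ± 115 (n = 3) to 142 ± 12.7 CPM (n = 4), and the difference was 1.58 (SE 0.16, adjusted p = 4.44e-09). Notch3 fell to 72.1 ± 5.16 CPM in adult DP from 276 ± 18.5 in adult DN, a log2 fold change of -1.94, against 0.33 in neonates. Dtx1 had a log2 fold change of -2.29 in adults and -0.16 in neonates. Il2ra fell by 5.84 in adults, to 7.18 ± 2.85 CPM, and by 2.79 in neonates.

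Notch1 thus averaged 986 CPM in neonatal and 895 CPM in adult DN, and 467 and 142 CPM in DP, levels that were not tested between ages. Hes1 and Myc, which fell in both ages, had differences of 1.32 (adjusted p = 0.295) and 0.11 (adjusted p = 0.702) that were not called. Among the 13 interactions, those of Lfng, Maml1 and Numbl were lost with DESeq2 size factors (adjusted p = 0.0669, 0.0826 and 0.0720). With the replicate number as a block, that of Lfng was lost (adjusted p = 0.0848). The DESeq2 test lost Maml1 (adjusted p = 0.0581), and the fit without a filter on low counts lost Maml1, Nrarp and Numbl (adjusted p = 0.0887, 0.0681 and 0.131). Without adult DN replicate 4, Lfng, Maml1, Nrarp, Numbl and Psen2 were also lost (adjusted p = 0.0881, 0.1, 0.0756, 0.166 and 0.0535), and the count over all genes was 1811. Lfng was lost on leaving out any of 12 libraries, all but adult DN replicate 2, adult DP replicate 2 and neonatal DN replicate 2, and Numbl on leaving out any of 11. Maml1 was lost without adult DN replicate 3 or 4, adult DP replicate 1, neonatal DN replicate 1 or neonatal DP replicate 2 or 3, and Nrarp without neonatal DP replicate 1.

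**Figure D3:**
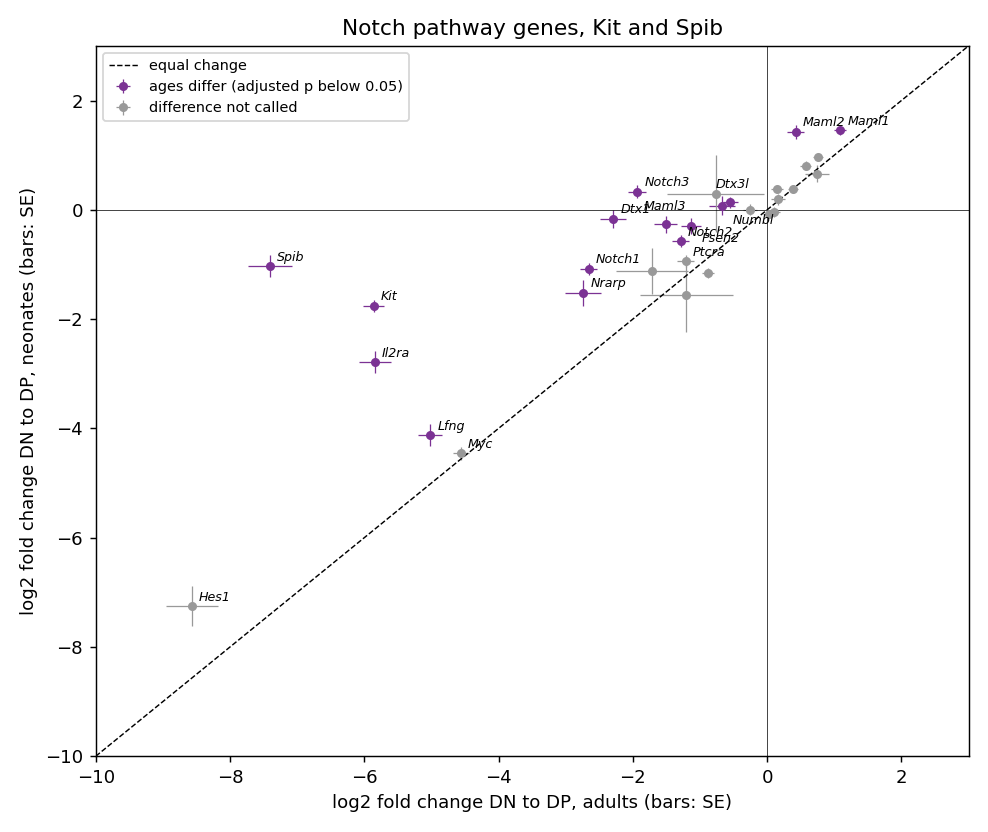
Log2 fold change from DN to DP in adults (x axis) and in neonates (y axis) for the 29 tested Notch pathway genes with Kit and Spib, bars showing SE, purple where the ages differ at an adjusted p-value below 0.05. Points above the dashed line of equal change, such as Notch1 (-1.08 against -2.66), Notch3 (0.33 against -1.94) and Kit (-1.76 against -5.86), fell less or rose more in neonates.

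Some cytokine receptors fell and others rose between the stages. Of 30 tested genes of cytokine reception, 16 were higher and 9 lower in DP, 10 and 8 of them at least 2-fold. These 2-fold shares were 33.3% and 26.7%, against 23.0% and 24.0% of all tested genes. Il7r (chr15:9505788-9530176), the IL-7 receptor chain on which DN survival depends, measured 58.6, 54.0, 48.3 and 42.6 CPM in DN and 1.31, 1.42, 1.27 and 1.52 CPM in DP, a 36.7-fold fall. Il2rb fell 159-fold and Flt3, a receptor of early progenitors, 45.7-fold, both to under 1 CPM. Il9r fell 10.9-fold. Il4ra measured 7.64, 9.90, 6.97 and 7.81 CPM in DN and 252, 242, 238 and 278 CPM in DP, a 31.1-fold rise, and Il21r rose 6.58-fold. The chains fell or rose in all libraries of the stage.

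The suppressors of cytokine signalling went in both directions. Socs1 measured 20.5, 23.3, 26.4 and 22.3 CPM in DN and 191, 192, 209 and 207 CPM in DP. Socs3 measured 11.2, 12.6, 10.4 and 8.92 CPM in DN and 66.5, 79.5, 78.8 and 75 CPM in DP. Both groups were separate for both genes. Socs2, another member of the family, was at 0 counts in all DP libraries and at least 14.4-fold lower. The shared chain Il2rg rose 2.45-fold and the signal transducer Il6st 4.14-fold. Of these 30 genes, 18 changed differently with age (60.0%, against 17.9% of all tested genes), all with a higher value in neonates. Over all genes, 12.3% were called with a higher value, and the higher share among calls depended on the scaling, as given above. Socs3 rose by 2.80 on the log2 scale in neonates and by 0.70 in adults (difference 2.10, SE 0.19, adjusted p = 2.26e-10). The Socs1 difference of 0.51 (adjusted p = 0.0475) was lost with DESeq2 size factors (adjusted p = 0.0833), in the DESeq2 test (adjusted p = 0.0727) and on leaving out any of 11 libraries, all but adult DN replicate 2, adult DP replicates 2 and 4 and neonatal DN replicate 3.

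Among survival genes, Bcl2 fell and Bcl2l1 rose. Bcl2 (chr1:106538178-106714274) measured 35.4, 40.1, 31.3 and 29.3 CPM in DN and 19.8, 22.3, 20.5 and 21.5 CPM in DP. Bcl2l1 (chr2:152780668-152831728), which encodes BCL-XL, the survival factor of DP cells, measured 44.6, 43.8, 48.3 and 46.1 CPM in DN and 406, 341, 355 and 391 CPM in DP. The 2 genes thus moved in opposite directions in every library, Bcl2 with a 1.62-fold fall and Bcl2l1 with an 8.17-fold rise. Mcl1, another survival factor, rose 2.19-fold.

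The whole apoptosis list, which holds both survival and death genes, had 16 of 30 tested members higher and 9 lower. Fas, the death receptor, measured 1.62, 1.48, 1.95 and 1.97 CPM in DN and 88.4, 76.5, 86.9 and 83.2 CPM in DP. Bmf and Bbc3 (PUMA), 2 BH3-only genes whose products oppose BCL-2 proteins, rose 17.6-fold and 8.24-fold, and Bcl2l11 (BIM) rose with a log2 fold change of 0.79. Bid, a BH3-only gene that links death receptors to mitochondria, fell 2.44-fold.

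**Figure D4:**
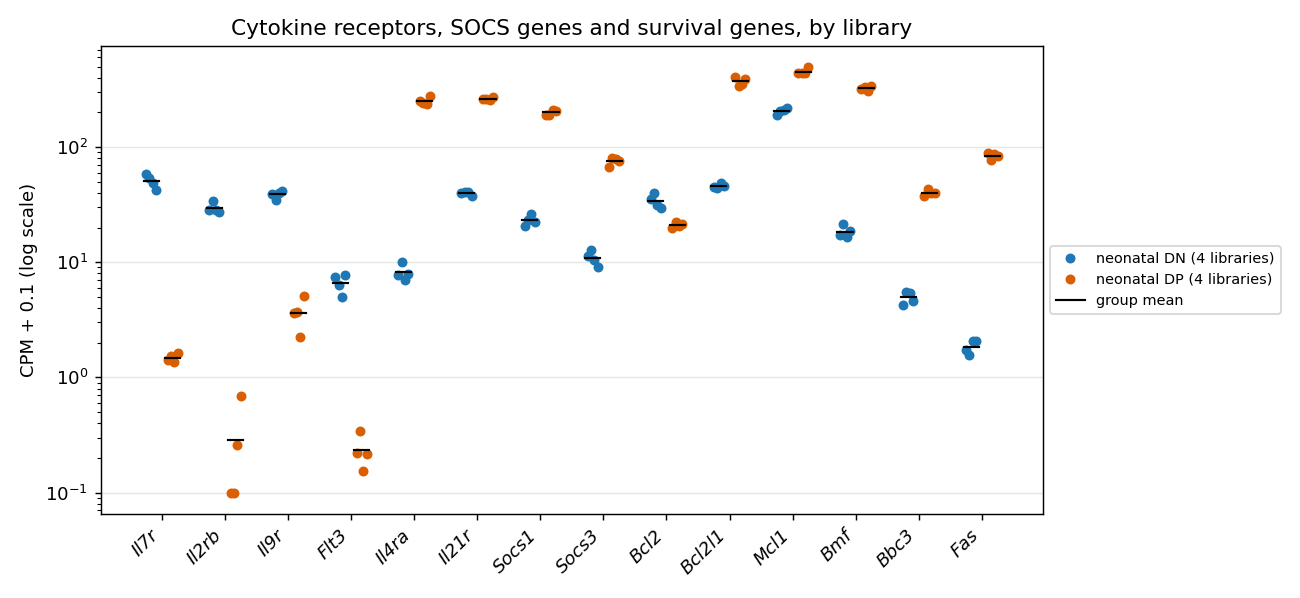
CPM + 0.1 on a log axis for 14 cytokine receptor, SOCS and survival genes in the 4 neonatal DN (blue) and 4 neonatal DP (orange) libraries, with black bars at group means. Il7r goes from a mean of 50.9 to 1.38 CPM while Il4ra goes from 8.08 to 252, and Bcl2l1, Bmf and Fas lie higher in every DP library.

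Cell cycle genes fell nearly as a block. All 38 DNA replication genes were at least 2-fold lower in DP (median log2 fold change -2.35), and of 42 mitosis genes 40 were lower, 38 of them at least 2-fold (median -2.62). Mcm5 (chr8:75109569-75128439), a subunit of the replicative helicase, measured 843, 835, 810 and 867 CPM in DN and 103, 94.7, 98.6 and 148 CPM in DP. Mki67, the proliferation antigen, measured 814, 780, 1058 and 955 CPM in DN and 186, 164, 184 and 240 CPM in DP. In both genes DP replicate 4 was the highest of its group and still lay well below every DN library. The largest falls were those of Mcm10 (11.7-fold), Pola1 (8.61-fold) and Gins2 (8.25-fold) among replication genes, and of Aurkb (12.9-fold), Plk1 (10.9-fold) and Espl1 (10.6-fold) among mitosis genes. Pttg1, the securin gene, was the 1 mitosis gene that rose, from 12.4 ± 1.36 to 17.3 ± 1.01 CPM.

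Motifs were counted in promoters of these 2 lists because the members moved together, and a few promoters that hold the motif are shown. The windows ran from 250 bases before to 50 after each start site in RefSeq on GRCm38.p6 and covered 29 of 38 replication genes and 33 of 42 mitosis genes. The E2F motif (TTTCCCGC or TTTGGCGC, both strands) was in 10 of 34 replication windows (29.4%) and in 1.56% of all 32851 windows. The cell cycle homology motif CHR (TTTGAA, both strands) was in 26 of 35 mitosis windows (74.3%) and in 17.9% of all windows, and in 11.8% of replication windows. CCAAT (both strands) was in 80.0% of mitosis, 61.8% of replication, 80.0% of sterol synthesis and 37.4% of all windows. Overlaps between motifs were not removed. A match is a description of letters only. The promoters shown were chosen for holding the motif in the 150 bases before the start site, E2F for replication and both CHR and CCAAT for mitosis. Among those, with a chromosome left out, the genes of lowest log2 fold change were taken. The 150 bases before the start site follow, 5′ to 3′ on the gene's strand, for Pola1 (chrX:93632156-93632305, minus strand), Mcm5 (chr8:75109359-75109508, plus) and Mcm6 (chr1:128359706-128359855, minus) with the E2F motif in capitals, and for Espl1 (chr15:102296143-102296292, plus), Cdk1 (chr10:69352913-69353062, minus) and Top2a (chr11:99024190-99024339, minus) with CHR and CCAAT in capitals, in either orientation.
Pola1: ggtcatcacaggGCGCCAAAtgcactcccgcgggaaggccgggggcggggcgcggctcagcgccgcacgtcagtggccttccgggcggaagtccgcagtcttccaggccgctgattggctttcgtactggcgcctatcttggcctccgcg
Mcm5: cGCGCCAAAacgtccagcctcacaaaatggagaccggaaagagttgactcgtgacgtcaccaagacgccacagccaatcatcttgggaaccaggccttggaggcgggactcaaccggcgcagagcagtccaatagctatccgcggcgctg
Mcm6: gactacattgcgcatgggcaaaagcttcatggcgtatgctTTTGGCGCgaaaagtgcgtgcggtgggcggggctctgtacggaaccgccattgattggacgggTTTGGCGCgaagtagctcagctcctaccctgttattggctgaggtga
Espl1: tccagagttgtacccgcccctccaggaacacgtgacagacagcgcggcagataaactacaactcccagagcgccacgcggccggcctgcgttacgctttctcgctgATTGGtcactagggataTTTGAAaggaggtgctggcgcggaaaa
Cdk1: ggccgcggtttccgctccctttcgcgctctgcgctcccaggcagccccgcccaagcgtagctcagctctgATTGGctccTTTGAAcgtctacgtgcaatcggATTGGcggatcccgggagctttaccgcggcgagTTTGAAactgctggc
Top2a: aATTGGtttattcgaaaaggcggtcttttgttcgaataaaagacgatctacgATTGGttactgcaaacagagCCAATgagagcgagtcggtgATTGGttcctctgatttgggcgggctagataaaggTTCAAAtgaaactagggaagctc

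Mcm6 holds 2 E2F matches, and Cdk1 holds 2 CHR matches. Mcm6 fell 7.18-fold, from 1034 ± 38.2 to 144 ± 21.7 CPM. Cdk1, the mitotic kinase, fell 10.4-fold, and Top2a, the topoisomerase that untangles chromosomes, 6.59-fold.

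The G1 regulators separated by cyclin and by inhibitor. Of 25 tested, 7 were higher and 17 lower. Ccnd2 (chr6:127125162-127152193) measured 190, 197, 168 and 138 CPM in DN and 7.21, 4.17, 4.22 and 5.50 CPM in DP, whereas Ccnd3, the D-type cyclin required for expansion after β-selection, measured 377, 397, 407 and 437 CPM in DN and 1852, 1833, 1850 and 1916 CPM in DP. The 2 cyclins changed in opposite directions in all libraries, by 33.0-fold and 4.61-fold. The kinases that pair with D-type cyclins fell, Cdk4 by 5.79-fold and Cdk6 by 7.76-fold, and so did Ccne1 (6.83-fold) and E2f1 (5.07-fold). Inhibitors rose, Cdkn1b (p27) by 5.89-fold, Cdkn1c (p57) by 11.3-fold and Cdkn2d (p19) by 5.95-fold, as did Rb1 (2.10-fold) and its relative Rbl2 (3.85-fold). Cdkn1a (p21), in contrast, fell 13.5-fold.

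Genes of growth fell with the cycle. Of 38 ribosome biogenesis genes, 37 were lower in DP, 35 at least 2-fold, with a median log2 fold change of -2.40. Npm1, a nucleolar chaperone, measured 3000, 2636, 2497 and 2751 CPM in DN and 333, 276, 268 and 359 CPM in DP. Polr1b, a subunit of RNA polymerase I, fell 14.6-fold, Rrp12 13.7-fold and Gnl3 9.83-fold. In 19 of the 38 genes the fall was larger in neonates than in adults by the interaction test, Npm1 among them (difference -0.55, SE 0.15, adjusted p = 0.00679).

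Glycolysis genes mostly fell. Of 22 genes, 17 fell and 4 rose, with a median log2 fold change of -1.43. Hk2 (chr6:82725025-82774454), the inducible hexokinase, measured 58.6, 59.7, 59.3 and 59.2 CPM in DN and 1.31, 1.96, 1.69 and 1.35 CPM in DP. Ldha, the lactate dehydrogenase of growing cells, fell from 1599 ± 102 to 274 ± 37.3 CPM, while Ldhb, the other main subunit, rose from 81.3 ± 6.44 to 563 ± 63.9 CPM. Tpi1 fell 12.4-fold, Pgam1 9.21-fold and the transporters Slc2a1 and Slc2a3 1.43-fold and 1.73-fold. Hk1, the constitutive hexokinase, rose 1.23-fold. In 13 of the 22 genes (59.1%, against 5.55% of all tested genes) the neonatal change lay below the adult one, and 0 genes differed the other way. Ldha was among the 13 (-2.54 against -1.48 on the log2 scale, adjusted p = 4.16e-07).

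Mitochondrial and sterol genes were mostly lower as well. Of 40 oxidative phosphorylation genes, 39 were lower, 11 at least 2-fold, with a median of -0.78. Cycs (cytochrome c) fell 4.14-fold and Cox5a 3.05-fold. Of 23 sterol synthesis genes, 20 were lower and 0 higher, with a median of -1.60. Hmgcs1, an early enzyme of the pathway, measured 242, 202, 237 and 201 CPM in DN and 35, 31.6, 37.5 and 33.2 CPM in DP, and its groups did not overlap. Idi1, an isomerase of the pathway, fell 8.15-fold.

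Migration genes had large changes in both directions. Of 31 tested, 11 were higher and 16 lower. Ccr9 (chr9:123678439-123784330), the receptor for the thymic chemokine CCL25, measured 60.7, 77.5, 53.8 and 44.2 CPM in DN and 1133, 1059, 1039 and 1046 CPM in DP. Plxnd1, a semaphorin receptor that guides thymocytes, measured 50.6, 63.6, 59.3 and 55.5 CPM in DN and 1016, 1143, 1132 and 1048 CPM in DP. These are rises of 18.1-fold and 18.9-fold, complete in every library. Cxcr4, which holds cells in the cortex, rose 2.55-fold. S1pr1, the exit receptor, fell 11.9-fold to 0.377 ± 0.188 CPM, and the integrins Itgae and Itga4 fell 11.2-fold and 3.28-fold.

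Chromatin genes split evenly, as did all tested genes, with 17 of 37 higher and 16 lower. At least 2-fold higher were 16.2% and lower 21.6%, against 23.0% and 24.0% of all tested genes. The de novo methyltransferase Dnmt3b fell from 92.8 ± 4.68 to 3.31 ± 1.16 CPM, and Uhrf1, which works with Dnmt1 at replication, fell 4.94-fold. Kdm6b, a histone demethylase, and Hdac7, a deacetylase of DP cells, rose 3.13-fold and 3.04-fold. Of 32 interferon response genes, 8 were higher and 20 lower, and Igtp rose 4.46-fold while Irf1 fell 2.18-fold. B2m, the light chain of MHC class I, fell from 264 ± 33.6 to 91.4 ± 13.0 CPM, and Cd1d1, which presents lipids to NKT cells, rose from 22.5 ± 2.81 to 88.8 ± 3.96 CPM.

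Immediate early and heat shock genes, which can also respond to handling of cells, gave 6 higher and 12 lower of 22. Egr1, an early target of receptor signals, rose 4.79-fold and Btg2, an antiproliferative gene, 6.6-fold. Fos measured 9.66, 17.9, 9.81 and 17.7 CPM in DN and 1.43, 3.09, 1.21 and 1.23 CPM in DP, so that the DN libraries fell into a lower and a higher pair. Hspd1, a mitochondrial chaperonin, fell 10.1-fold.

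The 15 largest rises outside the antigen receptor segments and predicted genes included Cd4 and several genes with few reads in DN. Slc7a11 (chr3:49892526-50443614), the cystine transporter, measured 0.579, 0.856, 0.709 and 0.691 CPM in DN and 158.9, 144.2, 153.9 and 146.8 CPM in DP. Cacna1e (chr1:154390731-154884501), a voltage-gated calcium channel subunit, measured 0.637, 0.999, 0.650 and 0.797 CPM in DN and 216, 285, 261 and 227 CPM in DP. Both genes were under 1 CPM in each DN library. Tdrp rose 421-fold, Fn3k, a kinase that repairs glycated proteins, 182-fold, Adcy1, an adenylate cyclase, 129-fold and Adam12, a metalloprotease, 102-fold. BB031773 was at or under the floor in all DN libraries and averaged 55.0 ± 5.31 CPM in DP, at least 310-fold higher. P3h4, Rbm24, Cfap74, Xrra1, Spats2l, Mgam and BC028471 completed the rises, between 90.5-fold and 372-fold. Where such genes overlap others, their reads cannot be assigned, since the use of strand is not given in the sources used here.

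The 15 largest falls contained progenitor and non-T genes. Plac8 fell 654-fold, from 147.7 ± 17.4 to 0.217 ± 0.029 CPM. Igfbp4, a binding protein of insulin-like growth factors, measured 69.0, 69.4, 51.7 and 51.6 CPM in DN and was at or under the floor in DP, at least 338-fold lower. Wdfy4 fell 324-fold and Cd163l1, a scavenger receptor that is also among the γδ T cell markers used below, 199-fold. Bcl11a, a factor of lymphoid and myeloid progenitors, and Cpa3, a mast cell protease, were at 0 counts in all DP libraries, at least 65.4-fold and 63.0-fold lower. Ltf, a granule protein of neutrophils, measured 11.2, 3.14, 2.84 and 26.4 CPM in DN, so its fall of at least 60.9-fold rests on a group that varied widely. Slc22a3, Gpr25, Esm1, Lipg, Fgd2, H2-Aa, Ccr2 and Elfn2 made up the rest, at least 56.5-fold lower in each case.

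Of 24 listed genes of stem cells and progenitors, 22 were tested and all of these fell. At least 2-fold lower were 21 of them (95.5%), against 24.0% of all tested genes. Bcl11a, Erg, Hhex, Hoxa9 and Tal1 were at 0 counts in all DP libraries. The 8 tested genes at the floor in DP passed the count filter through other groups, so these could not have been called higher. The list's median log2 fold change was -4.17, or -3.67 with the 8 floor-level genes set at their bounds. Spi1 (chr2:91082390-91115756), which encodes PU.1, a factor that early thymocytes switch off at commitment, measured 8.33, 7.75, 7.39 and 13.7 CPM in DN and at most 0.117 CPM in DP, at least 52.0-fold lower. Lmo2 fell from 2.27 ± 0.545 to 0.159 ± 0.145 CPM. Spib, a relative of PU.1, fell only 2.04-fold and remained at 11.5 ± 1.17 CPM.

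Markers of several other cell types that a DN gate can hold were higher in DN, and their part in the falls was not tested. Of all tested genes, 37.1% were lower in DP. Tested markers at the floor in DP passed the count filter through other groups, so these could not have been called higher. At the floor in a stage were 5 tested γδ markers, 3 innate-like and γδ regulators and 7 NK and innate lymphoid markers. All 10 γδ T cell markers fell, 5 of them to the floor in DP. The summed CPM of the 10 was 577.7 to 792.5 in DN and 29.8 to 40.8 in DP. Tcrg-C1 went from 102 ± 22.7 to 0.399 ± 0.0966 CPM, with reads shared uncertainly between near-identical copies of the γ chain constant region. The γδ regulator Sox13 went from 152 ± 16.8 to 2.21 ± 0.621 CPM. Of 15 innate-like and γδ regulators, 14 fell and 0 rose. Of 15 NK and innate lymphoid markers, 13 fell and 1 rose, with sums of 505.9 to 584.6 in DN and 93.4 to 113.8 in DP, and Areg, Gzmb, Il1rl1, Klra8, Klrb1c, Klrd1 and Ncr1 were at 0 in DP. Gzma, a granzyme, measured 398, 353, 306 and 346 CPM in DN and 15.4, 13.3, 12.9 and 16.1 CPM in DP.

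Myeloid sums were 49.4 to 119.1 CPM in DN and 9.13 to 10.3 in DP, 12 of 13 markers fell, and Cpa3, Ms4a2, S100a8 and S100a9 were at 0 in DP. The same limit of the count filter holds here. At the floor in a stage were 5 tested myeloid, 5 B cell and 5 dendritic cell markers, and 37.1% of all tested genes were lower in DP. DN replicate 4 had the highest level of Lyz2, a lysozyme of macrophages and neutrophils, at 35.1 CPM against 8.57 to 17.2 in the others. Of 12 B cell markers, 9 fell and 2 rose, with sums of 335.5 to 410.8 CPM in DN and 412.9 to 444.9 in DP. Those sums were mostly Ighm, at 283 ± 20.3 CPM in DN and 398 ± 11.4 in DP, whose call (adjusted p = 0.0331) was lost without DN replicate 1, 2 or 3 or DP replicate 2 or 4, with log2 fold changes of 0.45 to 0.48 against 0.49. Igkc was at or under the floor in DP. Of 11 dendritic cell markers, 10 fell, with Batf3, Cd209a, Clec9a, Itgax and Siglech at 0 in DP, and sums of 226.2 to 269.3 CPM in DN and 122.4 to 136.1 in DP. Stromal sums were 162.2 to 179.9 CPM in DN and 207.9 to 226.3 in DP, and 5 of 9 tested markers fell and 2 rose. Of 7 tested erythroid and platelet markers, 3 fell and 0 rose, and all 8 libraries had sums under 10 CPM. Of 12 markers of mature CD4, regulatory and NKT cells, 4 rose and 7 fell, with sums of 104.4 to 119.2 and 115.4 to 130.6 CPM.

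Fetal programme genes fell too, 7 of 9 tested, where 37.1% of all tested genes were lower. Of the 9, 2 were at the floor in a stage. H19, an imprinted noncoding RNA of fetal tissues, measured 150, 158, 99.2 and 106 CPM in DN and 0.835, 0.490, 1.69 and 2.22 CPM in DP. Igf2bp3, an RNA-binding protein of fetal blood cells, measured 86.5 ± 3.93 and 58.3 ± 4.57 CPM. The 2 genes differ in extent, H19 with a 99.1-fold and Igf2bp3 with a 1.48-fold fall, and adult levels of Igf2bp3 were 2.86 ± 1.21 CPM in DN and 3.43 ± 0.883 in DP.

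Several stage genes outside the Notch list also changed differently with age. Of the genes called in neonates, 9922 were called with the same sign in adults, and 144 genes were called in opposite directions with a called difference, 127 of them higher in neonatal DP and lower in adult DP. Cd8a stood at 66.5 ± 2.18 CPM in neonatal DN and 14.2 ± 2.44 in adult DN, while the DP means were 2809 and 3239, and the neonatal rise was smaller, with a difference of -2.43 on the log2 scale (SE 0.12, adjusted p = 5.63e-17). The neonatal rise of Cd4 was also smaller (difference -1.33, SE 0.28). Kit fell to 0.997 ± 0.363 CPM in adult DP against 13.5 ± 0.947 in neonatal DP, a difference of 4.11 (SE 0.20, adjusted p = 4.45e-17). Spib stood at 0.202 ± 0.0864 CPM in adult DP and 11.5 in neonatal DP, and the difference passed the test (adjusted p = 3.77e-14), with a fitted size of 6.38 that rests on an adult level near the floor.

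For other genes the DN means of the 2 ages also lay apart, which was not tested. Dntt rose by 1.70 in neonates, from 372 ± 28.2 CPM, and by 0.63 in adults, from 1536 ± 277 CPM (difference 1.08, adjusted p = 0.000184). Bcl2 fell by 0.69 in neonates and by 2.13 in adults, where DN stood at 126 ± 13.9 CPM. The share of DN1, DN2 and DN3 cells in the 2 pools was not measured, so a different mix at the 2 ages and a different level within a step cannot be told apart.

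The highest fitted interactions beside Spib were those of Tln2, Evc, Adam11, Cacna1e and Ahnak. Tln2, a talin, was at 0 in adult DP against 3.87 ± 0.287 CPM in neonatal DP, so that the fitted size is no measure. Evc rose 4.76-fold in neonates to 22.5 ± 2.36 CPM and was under 0.2 CPM on average at both adult stages. The Evc call was lost without adult DN replicate 4 (adjusted p = 0.0885). Cacna1e rose from 0.771 ± 0.169 to 247 ± 31.3 CPM in neonates and from 6.96 ± 7.27 to 80.5 ± 17.4 CPM in adults. The lowest were those of Ccr2, Cd8a, Als2cl, Arsi, Smyd1 and Wscd1, and Als2cl rose 8.17-fold to 25.1 ± 3.15 CPM in neonates while adult DP reached 233 ± 28.6 CPM.

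Several levels turned back between the neonatal DP and SP8 libraries, given here as a description without a test. Whether the SP8 libraries hold only cells that have passed the DP stage was not tested. Mcm5 had a mean of 839 CPM at the DN stage, 111 CPM at the DP stage, 754 CPM in SP8 thymocytes and 100.5 CPM in splenic CD8 cells. The same means of Mki67 were 902, 193, 1042 and 79.0 CPM. Ccnd2 went from 5.28 CPM in DP to 430 in SP8, Hk2 from 1.58 to 26.2 and Myc from 14.4 to 195. Il7r rose from 1.38 CPM in DP to 52.1 in SP8 and 308 in CD8. Rag1 went from 7609 CPM in DP to 552 in SP8 and 2.53 in CD8, and Bcl2l1 from 373 to 73.0 and 30.4. DP cells were therefore at the lowest or highest of the 4 neonatal means for each of these genes except Mcm5 and Mki67, whose lowest means were in CD8.

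**Figure D5:**
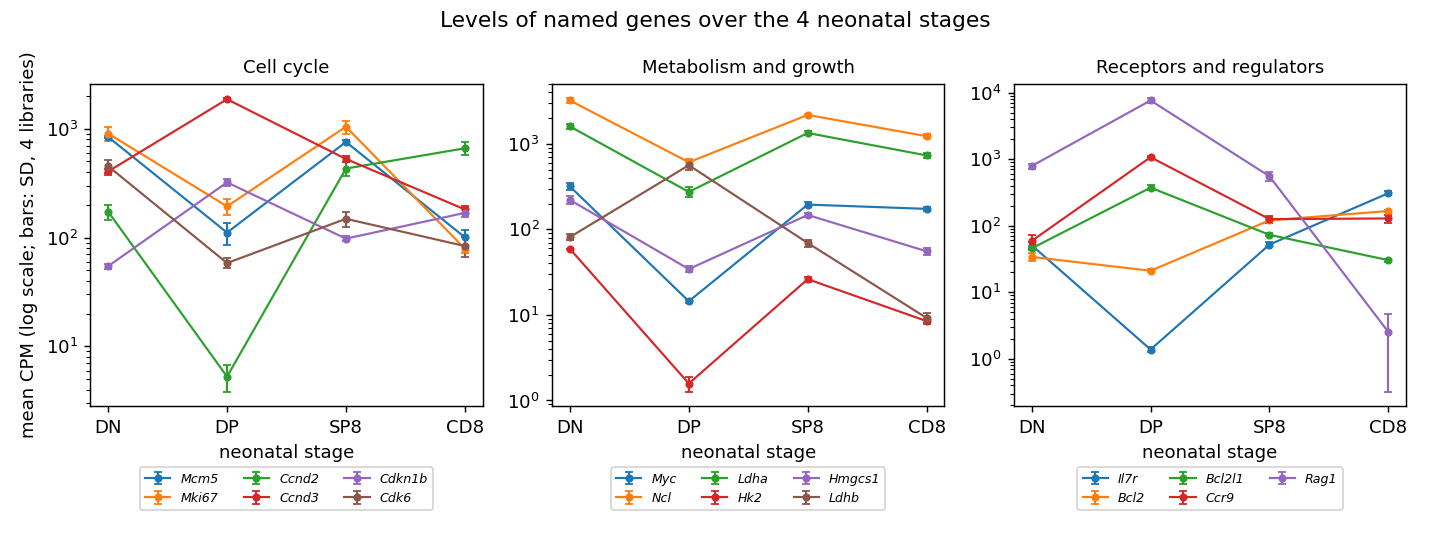
Mean CPM on a log axis for 17 genes over the neonatal stages DN, DP, SP8 (CD8 single-positive thymocytes) and CD8 (splenic naive CD8 T cells), with bars showing SD over 4 libraries. Ccnd2, Myc, Hk2 and Il7r have their lowest mean in DP, and Ccnd3, Ldhb, Rag1, Ccr9 and Bcl2l1 have their highest mean there.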

How the data were processed

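Polyadenylated RNA of 31 libraries in 8 groups was sequenced, and the authors deposited raw counts per gene. Reads were trimmed with Trim Galore and aligned with STAR 2.7.10a to mm10, per the submitters' processing notes. The counting tool, annotation release and use of strand are not given in the sources used here. Symbols and coordinates came from GENCODE M21 (52147 of 53700 identifiers, 97.1%). The tests were run on these counts by edgeR 4.0.16 (R 4.3.3): filterByExpr (minimum count 10, minimum total 15), TMM scaling, a group-means model over all 31 libraries, robust quasi-likelihood fit, F-test and Benjamini-Hochberg adjustment over 16461 genes. Each SE was obtained from the fold change and its F value. The interaction is the neonatal minus the adult change. Groups came from sample titles, and adult DN replicate 1 was not analysed here. On counts simulated for this comparison (16130 genes), 87% of 100 2-fold and 98% of 100 4-fold changes were recovered, with 6 other genes called. Recovery with changes in most genes, as called between these stages, was not tested. Alternatives were DESeq2 size factors, total-count scaling, the DESeq2 1.42.0 Wald test, other filters, a replicate block, the 8 libraries alone and leaving out each library. A group with at most 3 counts in every library was taken as at the floor. Named genes were key members, the 15 largest rises and falls of at least 10 CPM without overlap, the 3 highest and lowest called members of each of 30 lists, the 6 highest and lowest interactions and the 5 highest genes per group. Further members are examples chosen after their values were seen, and some genes are not reported here. The members and lists were chosen with earlier results of these data known.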

Additional observations from a re-analysis of the deposited data

Results flagged for a closer look

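In groups of 4 libraries, 25 of 374 gene and stage combinations of named genes held 1 library far from the other 3, and chance gives about 1 in 20 groups. CPM values are given with the range of the other 3 neonatal libraries. The library stood above the others for Adam12 in DP replicate 2 (193 against 174 to 176), Cblb in DN replicate 2 (69.6 against 51 to 53.5), Cd1d1 in DP replicate 3 (94.7 against 86.6 to 87) and Cfap74 in DN replicate 2 (1.09 against 0.637 to 0.709). The same held for Epcam in DP replicate 4 (10.4 against 6.8 to 7.39), Fos in DP replicate 2 (3.09 against 1.21 to 1.43), Hes1 in DP replicate 2 (0.49 against 0.117 to 0.158) and Id3 in DP replicate 4 (102 against 79.3 to 81.7). The same held for Ighm in DN replicate 4 (313 against 270 to 275), Lyz2 in DP replicate 3 (0.58 against 0.0596 to 0.147), Mcm5 in DP replicate 4 (148 against 94.7 to 103) and Plk1 in DP replicate 4 (12.4 against 9.5 to 9.78). The same held for Pola1 in DN replicate 1 (216 against 176 to 180), Rbm24 in DP replicate 3 (46.1 against 37.2 to 38.7), Spats2l in DN replicate 2 (0.714 against 0.106 to 0.177) and Spi1 in DN replicate 4 (13.7 against 7.39 to 8.33). The same held for Tap2 in DN replicate 4 (130 against 123 to 124). The library stood below the others for Bcl11a in DN replicate 3 (10.1 against 12.1 to 12.4), Cd163l1 in DP replicate 4 (0.176 against 0.417 to 0.441), Klf2 in DN replicate 1 (8.04 against 11.6 to 12.1) and Lef1 in DN replicate 4 (157 against 234 to 240). The same held for Lipg in DN replicate 4 (8.92 against 12.3 to 12.7), Spib in DP replicate 4 (9.77 against 11.9 to 12.2), Tcf4 in DP replicate 4 (34.9 against 45.4 to 46) and Zbp1 in DN replicate 3 (4.61 against 6.85 to 7.18). Of these 25 values, that of Lef1 lay within the range of the other stage.

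The change from DN to DP differed between neonates and adults for 2944 genes by the interaction test of edgeR. The neonatal minus adult log2 changes of the Notch list were Il2ra 3.06, Notch3 2.27, Dtx1 2.13, Notch1 1.58, Maml3 1.24, Nrarp 1.22, Maml2 1.01, Lfng 0.89, Psen2 0.84, Numbl 0.75, Notch2 0.72, Dtx3l 0.68 and Maml1 0.37. Other values above 0 were Spib 6.38, Tln2 6.07, Evc 5.76, Adam11 5.01, Cacna1e 4.87, Ahnak 4.44, Kit 4.11, Socs3 2.10, Bcl2 1.44, Id2 1.37, Dntt 1.08, Cd44 0.96 and Socs1 0.51. Values below 0 were Ccr2 -2.99, Cd8a -2.43, Als2cl -2.17, Arsi -2.09, Smyd1 -1.94, Wscd1 -1.78, Cd8b1 -1.58, Cd4 -1.33, Ldha -1.07, Hk2 -0.96, Bcl2l1 -0.68 and Id3 -0.66. Calls that were lost in a setting are given in the report beside Lfng, Maml1, Nrarp, Numbl, Psen2, Socs1 and Evc. For Spib, Tln2, Evc and Ccr2, at least 1 of the 4 groups averaged near or below the floor, so their fitted sizes are no measure of the difference.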

How the results depend on the processing

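Total counts of called genes held within 1.5 times under all settings run, with 2 exceptions. Genes called at least 2-fold numbered 5100, against 7727, when only the 11424 genes with a mean of 5 CPM in a group were tested, which are fewer genes. Leaving out each library gave 11841 to 12109 genes called from DN to DP, 7405 to 7793 called at least 2-fold, and 1811 to 3098 with a difference between ages; the lowest was without adult DN replicate 4 (the cause was not tested). The median of the Notch list turned from -0.07 to 0.09 (0.0866) with total-count scaling, which moved the median of all genes from 0.05 to 0.21. The DESeq2 Wald test called 12371 genes. Of 1496 fold changes of named genes with a library left out 11 lost the call, and of 1309 under other settings 2 lost and 2 gained it; 0 reversed. Tcf4 (-0.25) lost it with total-count scaling, the CPM filter, or without neonatal DN replicate 1 or 2 or DP replicate 4 (-0.24 to -0.09). Same-numbered DN and DP libraries had deviations correlated by 0.0786 to 0.167, which does not establish pairing, although each library correlated best with its own number; the replicate block gave 12713 genes called, 7821 at least 2-fold and 4067 differing with age. Of the genes differing with age, those with a lower value in neonates (913) numbered 1510 with DESeq2 size factors, 1771 in the DESeq2 Wald test, 512 with total-count scaling, 1424 with the replicate block and 474 without adult DN replicate 4, and those with a higher value (2031) numbered 1337 without that library. Depth limits genes near 3 counts per library.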

Other observations

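Protein synthesis genes outside the lists above also differed between the stages; these families were chosen after their values were seen. Of 82 cytosolic ribosomal protein genes, 79 were lower in DP and 0 higher, 69 at least 2-fold, with a median log2 fold change of -1.41. Their summed CPM ran from 79540 to 91750 in DN and from 27980 to 39350 in DP, and many have near-identical pseudogenes, so single members are uncertain. All 7 chaperonin CCT subunits that were tested, which do not include Cct6a, fell (median -1.60). So did 19 of 20 cytosolic tRNA synthetases (median -1.57), with 0 higher in either family. Of these synthetases, Vars went from 699 ± 77.5 to 65.7 ± 9.61 CPM and Qars from 193 to 183 CPM (adjusted p = 0.241). Of 54 genes with symbols that begin with Eif, 43 fell and 4 rose. These hold initiation factors together with regulators such as the Eif2ak and Eif4ebp genes. Among the regulators, Eif2ak3 rose (log2 fold change 1.44) and Eif4ebp1 fell (-2.57). Eif5a went from 2505 ± 126 to 367 ± 42.9 CPM, and Eif4e3, a cap-binding protein, rose from 16.6 to 83.8 CPM. Of 38 proteasome genes, 35 fell and 0 rose (median -0.90).

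The 5 genes of highest mean CPM, which is not corrected for gene length, were in neonatal DN Eef1a1 (10490 ± 567), Hsp90ab1, Eef2, Ptma and the identifier ENSMUSG00000119584, for which the annotation used held no symbol. In neonatal DP they were Rag1 (7609 ± 591), Tcf7 (4242 ± 252), ENSMUSG00000119584, Eef1a1 and Eef2. ENSMUSG00000119584 measured 5366 ± 1050 CPM in DN and 4022 ± 960 in DP (adjusted p = 0.452); it was called lower with no filter on low counts (log2 fold change -0.42, adjusted p = 4.6e-06) and in the 8 neonatal libraries alone (-0.44, adjusted p = 0.0216). Itgam, the 1 myeloid marker that rose, went from 1.17 ± 0.578 to 4.82 ± 0.756 CPM, and Prf1, the 1 NK marker that rose, from 0.873 ± 0.529 to 6.31 ± 0.781 CPM. The neonatal change of Prf1 lay above the adult one by 3.19 (SE 0.30, adjusted p = 9.9e-10).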
